A study of Mus musculus with 6 samples.

Results

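Nuclear organization in C2C12 myoblasts was compared with that in myotubes kept for 7 days in differentiation conditions and exposed to cytosine arabinoside (AraC). The regions described are 500 kb bins of the autosomes that held data in the Hi-C matrices of both conditions, 4727 of the 4930 autosomal bins and of 5455 bins in the whole series. C2C12 is an established mouse line of muscle progenitors, all groups carry the same unmodified genome, and AraC is a cytidine analogue that stops DNA synthesis and depletes dividing cells. Myoblasts were proliferating cells harvested at day 0, without AraC. Myotubes were harvested at day 3 without AraC, and the AraC-treated group at day 7 after 10 µg/ml of the compound. The day 3 matrix is given only as a level beside the other values. Each matrix pooled 2 biological replicates before it was deposited. No test between conditions was therefore possible, values carry no SD, and the 95% intervals given for shares are exact binomial intervals, which reflect only counting error and take adjacent bins to be independent of each other. By the methods of the study, myoblasts were plated at a lower density and kept in a different serum from the myotubes. Days in culture, plating density, serum, differentiation and AraC exposure cannot be told apart. Nor can a shift in every nucleus and a change in the share of fused cells, since a matrix averages over the whole culture. Hi-C gives no transcript level, so the labelled cell type was not checked against expressed markers.

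In Hi-C, DNA that lies close together in the nucleus is cut, ligated and sequenced in pairs. Chromatin segregates into an A compartment, which is gene rich and mostly active, and a B compartment, which is gene poor and mostly silent, and bins of a compartment share interaction partners even across chromosomes. The deposited value for a pair of bins is the correlation coefficient of their normalized interaction profiles. For each autosome and condition, the first principal component (PC1) of the within-chromosome block was computed, made positive where protein-coding start sites were dense, and divided by its SD. This scaled PC1, in SD units, is positive in A and negative in B. During muscle differentiation, myoblasts leave the cell cycle, fuse and assemble sarcomeres, and the compartment of a locus is one of the layers at which such a change can be recorded.

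The compartment pattern was largely shared by both conditions, while 613 bins moved by at least 0.5 SD units. Scaled PC1 of myoblasts and AraC-treated myotubes had a Pearson *r* of 0.937 across the 4727 bins, and the change had an SD of 0.355 and a median of −0.0197. A rise of at least 0.5 was seen in 334 bins, and the background share of risen bins over all bins was 7.07% (6.35 to 7.83). A fall of at least 0.5 was seen in 279 bins, a background share of 5.9% (5.25 to 6.61). The tails were unequal. Rises of at least 1 were found in 78 bins and falls of that size in 13, and 17 bins rose by at least 1.5 whereas 0 fell as far. The changes ran from −1.38 to 1.92. Bins nearest the threshold were the *Inhba* bin on chr 13, with a change of −0.50014, and a bin on chr 8 with a change of −0.49964, so that membership at the edge rests on very small differences. Neighbouring bins changed together, with *r* = 0.769 between adjacent bins over 4673 pairs. These counts depend on the scaling. With both conditions expressed in units of the myoblast SD, 1176 bins rose and 1309 fell, and the median change was −0.259.

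**Figure D1:**
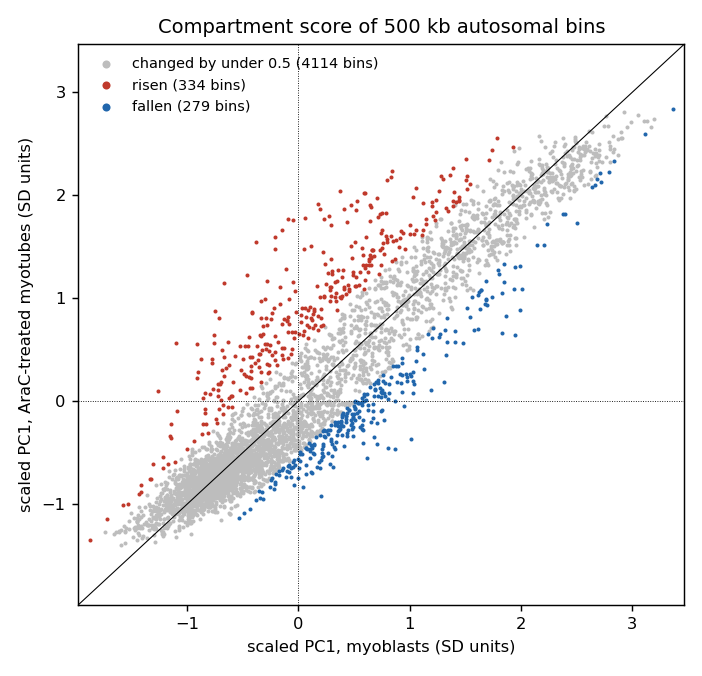
Scaled PC1 (SD units) of each of the 4727 autosomal 500 kb bins in myoblasts (x axis) and AraC-treated myotubes (y axis). Red points are the 334 bins that rose by at least 0.5, blue points the 279 that fell by at least 0.5, the solid line marks equal values and dotted lines mark 0. Risen bins reach farther from the line than fallen bins.

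Moves across 0 were fewer and mostly shallow. In myoblasts, 1808 bins (38.2%, 36.9 to 39.7) were in A, and in AraC-treated myotubes 1677 bins (35.5%, 34.1 to 36.9). A total of 307 bins left A for B, a background share of 6.49% (5.81 to 7.24), and 176 left B for A, a background share of 3.72% (3.20 to 4.30). The 307 bins that entered B had a median absolute scaled PC1 of 0.207 in myoblasts and 0.214 in AraC-treated myotubes, against a median of 0.717 over all bins in myoblasts. Of the 483 switched bins, 255 also passed the 0.5 change. When bins near 0 were left out by requiring an absolute PC1 above the 20th percentile of the chromosome in both conditions, 9 bins that left A and 31 that entered it remained, so the order of the directions turned. Risen bins did not mainly cross the boundary. Of the 334 risen bins, 178 were in A in both conditions, 33 stayed in B and 123 went from B to A. Of the 279 fallen bins, 113 stayed in A, 34 stayed in B and 132 went from A to B.

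Risen and fallen bins started from different levels. The median scaled PC1 of risen bins was 0.0814 in myoblasts, 0.599 at day 3 and 0.960 after AraC. For fallen bins it was 0.547 in myoblasts, 0.0612 at day 3 and −0.130 after AraC. Risen bins thus lay around the boundary in myoblasts and within A at day 7, and fallen bins lay within A in myoblasts and around the boundary at day 7. The medians in myoblasts and after AraC are from the matrices that chose the bins, so they describe the members and support nothing further. The day 3 matrix did not choose the bins, and its medians are given only as a level.

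The bins with the largest rises held a small number of genes each. The largest rise was at chr3:100000001-100500000 (mm10), which holds *Gdap2*, *Wdr3* and *Tent5c*, the last encoding a noncanonical poly(A) polymerase. Its scaled PC1 was −0.377 in myoblasts, 0.376 at day 3 and 1.55 after AraC, a rise of 1.92. The bin of *Far2*, *Ergic2* and *Tmtc1* at chr6:148000001-148500000 went from −0.0944 through 0.959 to 1.77. The neighbouring bin of *Ipo8*, *Caprin2* and *Sinhcaf* at chr6:148500001-149000000 went from 0.176 through 1.22 to 1.91. Both chr 6 bins lay within a few Mb of the distal end of the chromosome, and both had their lowest level in myoblasts.

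Integrin genes lay in the bins ranked 3 and 4 by size of rise. Integrins are the adhesion receptors that link cells to the matrix, and the β1 subunit takes part in myoblast fusion. The bin of *Itga9* (integrin α9), *Golga4* and *Ctdspl* at chr9:118500001-119000000 had a scaled PC1 of −0.668 in myoblasts, 0.431 at day 3 and 1.15 after AraC. The *Itgb1* (integrin β1) bin at chr8:128500001-129000000, which also holds *Gm3952*, had values of −0.146, 0.987 and 1.66 in the same order. *Nuak1*, an AMPK-related kinase gene, is the sole protein-coding gene to start in chr10:84000001-84500000, where values were −0.0450, 1.09 and 1.76. The bin before it on chr 10, with *Aldh1l2*, *Washc4*, *Appl2* and *1500009L16Rik*, went from −0.204 through 0.765 to 1.47. All of these 4 bins were in B in myoblasts and in A in AraC-treated myotubes.

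Chr 3 supplied the bins of *Wars2* and *Tbx15* and of *Spag17* as well. *Tbx15* encodes a T-box transcription factor of skeletal muscle and skeleton, and *Wars2* a mitochondrial tryptophanyl-tRNA synthetase. Their shared bin at chr3:99000001-99500000 had a scaled PC1 of −0.206 in myoblasts, 0.599 at day 3 and 1.60 after AraC. The *Spag17* bin beside it went from 0.0591 through 0.847 to 1.78. The remaining large rise, of 1.69, was in the bin of *Slc35f3*, *Coa6* and *Tarbp1* at chr8:126000001-126500000, from −0.462 in myoblasts to 1.23.

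The largest fall was at chr12:32000001-32500000, in the bin of *Prkar2b*, *Pik3cg* and *Ccdc71l*. *Prkar2b* encodes a regulatory subunit of protein kinase A and *Pik3cg* a catalytic subunit of phosphoinositide 3-kinase. Scaled PC1 was 1.01 in myoblasts, −0.0901 at day 3 and −0.369 after AraC, a change of −1.38. The bin of *Vcam1*, with *Slc30a7*, *Extl2* and *Cdc14a* among its other genes, at chr3:116000001-116500000 had values of 0.869, −0.0367 and −0.459. *Vcam1* is a cell adhesion molecule of progenitor cells. The *Eya1* bin at chr1:14000001-14500000 had values of 0.807, −0.123 and −0.453. *Eya1* encodes a transcription cofactor that acts early in myogenesis. In these 3 bins the myoblast value alone was positive.

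Other large falls fell into neighbouring pairs or blocks. On chr 13, the bin of *Nid1* (nidogen-1, a basement membrane protein), *Prl2c2*, *Prl2c5* and *Gpr137b* went from 0.616 in myoblasts through −0.513 to −0.547. The bin before it, with *Edaradd*, *Ero1lb* and *Prl2c3*, went from 0.209 through −0.821 to −0.923. On chr 7, chr7:35000001-35500000 holds 9 protein-coding genes, among them *Cebpa*, a regulator of adipocyte and myeloid differentiation and of cell cycle exit, and went from 0.703 through −0.280 to −0.410. On chr 6, 4 of the 10 largest falls lay within chr6:51000001-53000000, and there all values remained in A. The Hoxa cluster, with 11 *Hoxa* genes that pattern the body axis, lies in chr6:52000001-52500000, where scaled PC1 was 1.99 in myoblasts, 1.04 at day 3 and 0.882 after AraC. The bin of *Hibadh* and *Tax1bp1* beside it went from 1.94 through 0.687 to 0.644. The *Snx10* bin had values of 1.83, 0.942 and 0.662, and the bin of *Nfe2l3*, *Hnrnpa2b1* and *Cbx3* values of 1.30, 0.352 and 0.193.

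The muscle-list genes with the largest rises and falls were *Itga9*, *Itgb1*, *Nuak1*, *Vcam1*, *Eya1* and *Nid1*. For 4 of them, the 250 bases before the RefSeq start site (GRCm38.p6, the assembly of mm10) are shown so that the loci can be placed, with the E-box CANNTG, the motif that myogenic factors bind, in capitals. The motif is palindromic in its fixed letters and so was searched once for both strands. The windows are at chr9:118711442-118711691 (+) for *Itga9*, chr8:128685404-128685653 (+) for *Itgb1*, chr10:84440669-84440918 (−) for *Nuak1* and chr13:13437352-13437601 (+) for *Nid1*.
Itga9: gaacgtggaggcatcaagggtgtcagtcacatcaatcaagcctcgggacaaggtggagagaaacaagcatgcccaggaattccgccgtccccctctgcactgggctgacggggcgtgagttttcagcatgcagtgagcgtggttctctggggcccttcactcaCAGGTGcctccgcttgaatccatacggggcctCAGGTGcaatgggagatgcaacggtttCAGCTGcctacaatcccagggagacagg
Itgb1: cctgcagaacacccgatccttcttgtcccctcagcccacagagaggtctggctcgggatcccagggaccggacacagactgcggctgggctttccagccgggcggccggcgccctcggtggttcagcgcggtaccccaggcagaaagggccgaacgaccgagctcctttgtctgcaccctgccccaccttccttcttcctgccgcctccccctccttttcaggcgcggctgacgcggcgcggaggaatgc
Nuak1: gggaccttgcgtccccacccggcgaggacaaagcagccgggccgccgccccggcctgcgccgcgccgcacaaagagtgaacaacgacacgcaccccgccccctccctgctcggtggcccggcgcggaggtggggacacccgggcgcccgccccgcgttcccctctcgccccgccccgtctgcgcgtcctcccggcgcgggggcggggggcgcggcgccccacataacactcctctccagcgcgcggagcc
Nid1: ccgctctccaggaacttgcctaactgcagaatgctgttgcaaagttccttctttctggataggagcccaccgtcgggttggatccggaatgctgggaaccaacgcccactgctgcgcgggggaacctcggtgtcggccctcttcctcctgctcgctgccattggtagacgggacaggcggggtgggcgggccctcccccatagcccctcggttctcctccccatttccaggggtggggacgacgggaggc
The *Itga9* window held 3 matches, 1 of them CAGCTG, and the *Itgb1*, *Nuak1* and *Nid1* windows held 0. Over 27025 RefSeq promoters of the same length, 66.0% held CANNTG and 12.8% held CAGCTG. The latter motif was in 13% of 1238 promoters of genes in risen bins, 12.4% of 1032 in fallen bins and 11.9% of 13132 in the other bins. CANNTG was in 61.3% of promoters in risen bins, 61.3% in fallen and 61.7% in the others. A match is a description of letters. A 500 kb bin does not resolve a promoter.

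Changes extended over long stretches. The 334 risen bins formed 122 runs of adjacent bins, of which 53 were single bins and 19 had 5 bins or more. Runs of at least 5 bins held 145 risen bins (43.4%). The 279 fallen bins formed 144 runs, of which 84 were single bins and 10 had 5 bins or more, holding 71 bins (25.4%). The longest risen run spanned 9.5 Mb and the longest fallen run 5 Mb.

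The longest run was at chr9:110500001-120000000, where all 19 bins rose by 0.674 to 1.82. Its mean scaled PC1 was −0.431 in myoblasts, 0.268 at day 3 and 0.732 after AraC, and 15 of its bins moved from B to A. The run holds 77 protein-coding genes. List members among them included *Tgfbr2* and *Acvr2b* (receptors for TGF-β and for activin and myostatin), *Itga9*, *Myl3* (a myosin light chain), *Pth1r* and *Myd88*. Over bins of chr 9 more than 2 Mb away, the mean coefficient of the run with bins that stayed in A went from −0.0171 to 0.100. With bins that stayed in B it went from 0.0164 to −0.0305.

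Further risen runs were shorter. At chr3:96500001-102000000, 11 bins holding 61 genes, including *Notch2*, rose from a mean of 0.436 in myoblasts through 1.09 to 1.84. At chr17:8500001-14000000, 11 bins with 33 genes rose from −0.180 through 0.141 to 0.676, and 8 of them moved from B to A. *Igf2r*, the receptor that clears IGF2, lies there, as do *Slc22a2* and *Slc22a3*. At chr8:124500001-129500000, 10 bins with 35 genes including *Itgb1* rose from 0.488 through 1.37 to 1.78. At chr14:57500001-62500000, 10 bins with 43 genes rose from 0.285 through 0.633 to 1.22.

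The longest fallen run, chr6:49000001-54000000, held the Hoxa cluster. Its 10 bins and 39 genes fell from a mean scaled PC1 of 1.33 in myoblasts through 0.495 to 0.346, and 3 bins entered B. The mean coefficient of this run with bins of chr 6 that stayed in A went from 0.0643 to 0.00729, and with bins that stayed in B from −0.0268 to 0.00748. At chr9:30500001-35500000, 10 bins fell from −0.138 through −0.525 to −0.774. List members there were *Cdon*, a surface receptor of the myoblast, *Kirrel3*, *Barx2*, *Ets1* and *Fli1*. At chr13:52500001-56500000, 8 bins with 63 genes fell from 1.21 through 0.600 to 0.498, among them those of *Fgfr4*, *Pdlim7*, *Ror2* and *Msx2*. At chr9:41000001-45000000, 8 bins with *Thy1* and *Mcam* among their genes fell from 0.948 through 0.362 to 0.241, and at chr14:65000001-69000000, 8 bins with *Fzd3* and *Dock5* fell from 0.593 through −0.0906 to −0.0881.

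**Figure D2:**
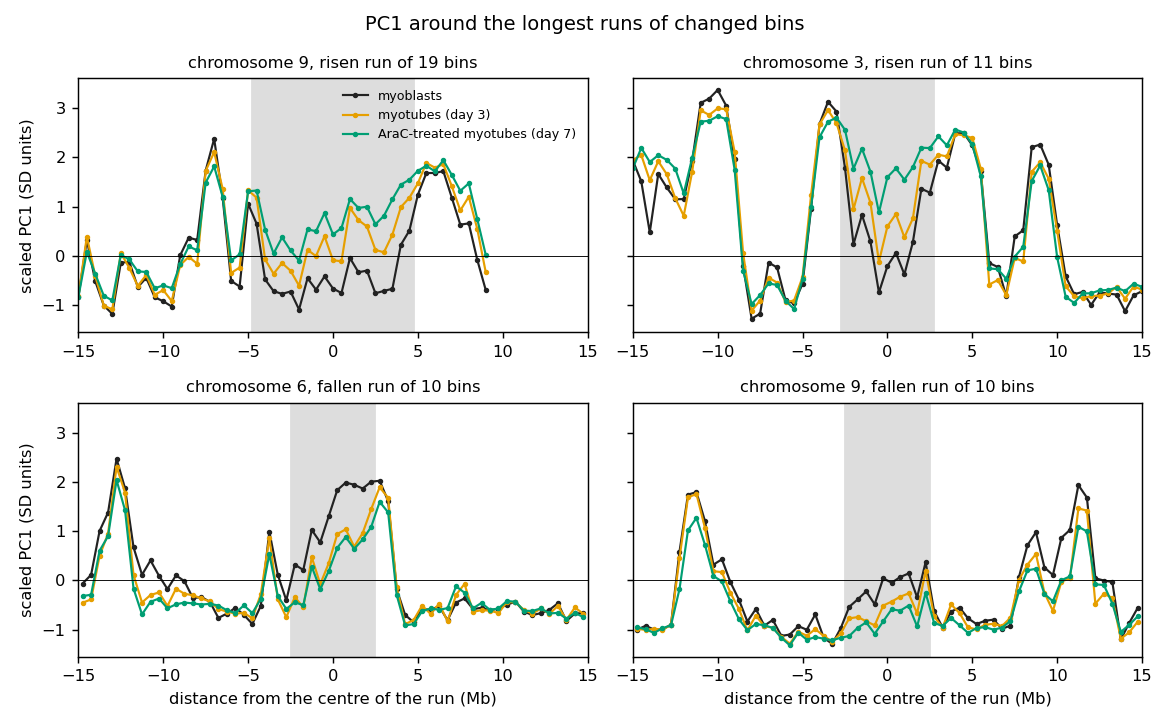
Scaled PC1 (y axis, SD units) in myoblasts (black), myotubes (orange) and AraC-treated myotubes (green) within 15 Mb of the centre (x axis, Mb) of the longest risen runs, on chr 9 and chr 3, and the longest fallen runs, on chr 6 and chr 9. Each point is a 500 kb bin and grey marks the run. Inside the risen runs the green line lies above the black line in every bin and inside the fallen runs below it.

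Position along the chromosome differed between risen and fallen bins. Mouse autosomes carry the centromere at one end, so the first bin with data is centromeric and the last is distal. Of the risen bins, 255 (76.3%) lay distal of the midpoint of the chromosome, and of the fallen bins, 199 (71.3%) lay on the centromeric side. Each autosome was divided into 5 segments of equal length, numbered from the centromere. In segment 1, 37 of 938 bins (3.94%) rose and 95 (10.1%) fell. In segment 5, 151 of 952 bins (15.9%) rose and 30 (3.15%) fell. The median change went from −0.0835 and −0.0881 in segments 1 and 2 to −0.00272, 0.0235 and 0.0834 in segments 3, 4 and 5. The share of bins in A went from 34.8% to 27.3% between the conditions in segment 1, and from 41.2% to 45.4% in segment 5. Within 10 Mb of the last bin lay 22.2% of risen bins, 5.38% of fallen bins and 7.85% of all bins.

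The trend was seen on most but not all autosomes. Pearson *r* of the change with relative position, a description over neighbouring bins that are not independent, was above 0 on 17 of 19 autosomes, with a median of 0.260. It was highest on chr 9 (0.591), chr 5 (0.568) and chr 8 (0.551). On chr 3 it was −0.102. On chr 17 it was −0.295, and there 17 of the 28 risen bins lay in segment 1. Chr 8 held 22 risen bins in segment 5 and chr 9 held 24. Without these autosomes 72.3% of risen bins lay distal of the midpoint and 67.7% of fallen bins lay on the centromeric side. Bins that stayed in A moved by a median of −0.0669 in segment 1 and 0.0744 in segment 5, and bins that stayed in B by −0.0583 and 0.0597. Base composition also ran along the chromosome. The median GC content was 40.9% in segment 1 and 44.0% in segment 5, and the median number of HindIII sites per bin was 166 and 153. The part of composition and cut sites in the trend was not tested.

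**Figure D3:**
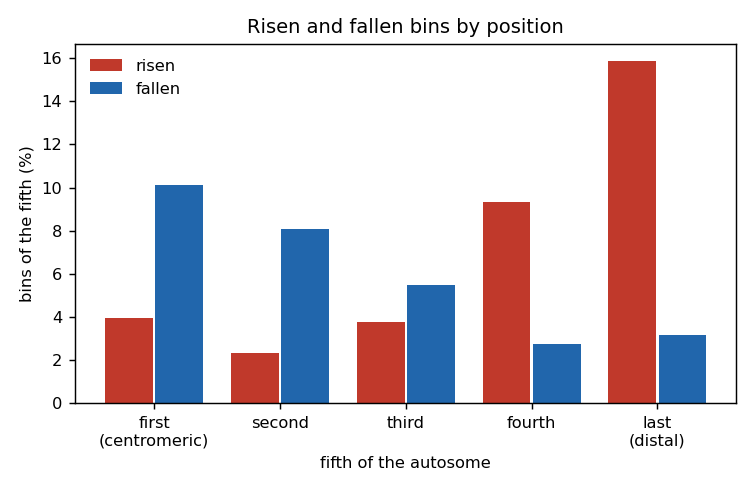
Percentage of bins (y axis) that rose (red) or fell (blue) by at least 0.5 SD units in 5 equal segments of the autosomes (x axis), from the centromeric to the distal end, over 938 to 952 bins per segment. Risen bins go from 3.94% in segment 1 to 15.9% in segment 5 and fallen bins from 10.1% to 3.15%.

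Autosomes differed in how much they changed. The share of bins that rose or fell was highest on chr 9, with 50 of 243 bins (20.6%), followed by chr 17 with 35 of 184 (19.02%) and chr 3 with 58 of 312 (18.6%). Chr 9 gained A, with 26 bins moving from B to A against 17 the other way, and chr 17 did so too with 19 against 7. On chr 3, 36 bins left A and 7 entered it. The lowest shares were on chr 11, with 13 of 237 bins (5.49%), chr 19 with 7 of 117 (5.98%) and chr 7 with 17 of 265 (6.42%). All 13 changed bins of chr 11, a gene-rich autosome, had risen. PC1 explained more of the variance in AraC-treated myotubes than in myoblasts on every autosome, with medians of 39.4% and 63.5%. On chr 13 the correlation of PC1 with start-site density that sets the sign was only 0.131 and 0.0512, and the sign set by GC content was the same there as on the other autosomes.

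Changed bins lay nearer to A in GC content and repeats and between A and B in the number of start sites. The median GC content was 44.1% in risen bins, 42.9% in fallen bins, 44.6% in bins that stayed in A and 39.9% in bins that stayed in B. Risen and fallen bins held a median of 3 protein-coding start sites each, against 6 in bins that stayed in A and 1 in bins that stayed in B. No protein-coding start site was found in 14.7% of risen bins, 10.4% of fallen bins and 24.3% of all bins. The share was 7.00% in bins that stayed in A and 35.2% in bins that stayed in B. Repeats masked in the assembly covered a median of 27.6% of risen and 28.6% of fallen bins, against 28.2% of bins that stayed in A and 35.4% of bins that stayed in B. The median number of HindIII sites was 153.5 in risen bins, 163 in fallen bins, 151 in bins that stayed in A and 166 in bins that stayed in B. The change itself had an *r* of −0.0587 with the number of start sites.

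Bins of other autosomes gave a second readout of the same regions. Coefficients within and between chromosomes share the whole-genome profiles of the bins, so these values are not independent of PC1. They were divided by the SD of the trans coefficients of each condition, which was 0.0446 in myoblasts and 0.0732 in AraC-treated myotubes. The mean coefficient of risen bins with bins that stayed in A on other autosomes was 0.203 in myoblasts, 0.584 at day 3 and 0.970 after AraC. With bins that stayed in B it was 0.125, −0.253 and −0.567. Risen bins thus had nearly equal coefficients with A and B in myoblasts and well separated ones at day 7. Among risen bins of different autosomes the mean was 0.347, 0.403 and 0.886.

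Fallen bins moved the other way but stopped near 0. Their mean coefficient with bins that stayed in A was 0.837 in myoblasts, 0.107 at day 3 and −0.0902 after AraC, and with bins that stayed in B it was −0.229, 0.0377 and 0.112. The preference of a bin for A was taken as its mean trans coefficient with bins that stayed in A minus that with bins that stayed in B. It moved upward in 329 of 334 risen bins and downward in 279 of 279 fallen bins, while over all bins 24.6% moved upward and the median went from −0.691 to −1.07. In the bin of *Nuak1* it went from −0.00826 in myoblasts through 1.67 to 2.98, and in the bin of *Prkar2b* and *Pik3cg* from 1.26 through −0.812 to −1.12.

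**Figure D4:**
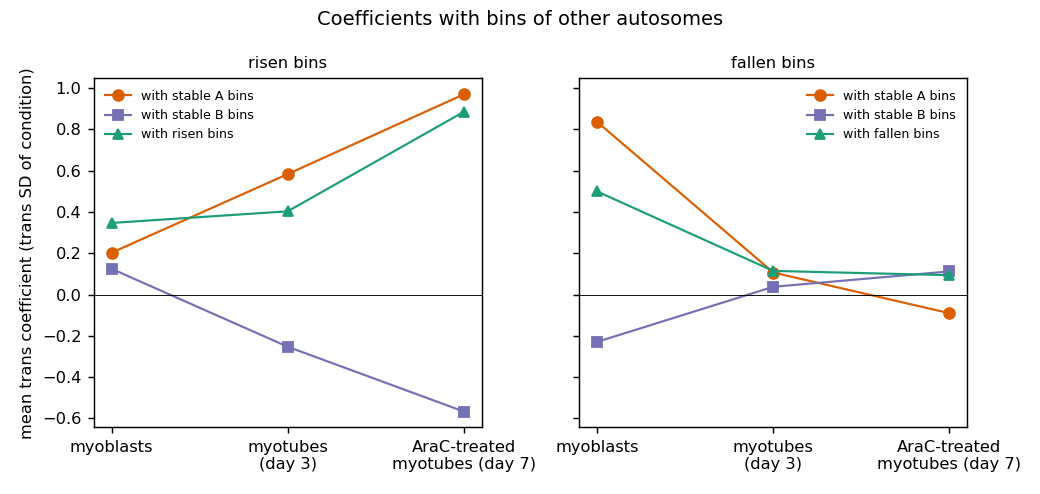
Mean correlation coefficient (y axis, in SD of the trans coefficients of the condition) of risen bins (left) and fallen bins (right) with bins of other autosomes that stayed in A (circles) or B (squares), and with each other (triangles), in myoblasts, myotubes and AraC-treated myotubes (x axis). Risen bins reach 0.970 with A and −0.567 with B at day 7, and fallen bins lie between −0.0902 and 0.112 with all partners.

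Segregation of the stable bins was stronger in AraC-treated myotubes. On the same autosome and over 2 Mb apart, the mean coefficient of pairs within A was 0.0759 in myoblasts and 0.106 in AraC-treated myotubes. Pairs within B had means of 0.0437 and 0.0663, and pairs of an A with a B bin had means of −0.0280 and −0.0616. The contrast, the mean of both like pairs minus the unlike pairs, went from 0.0878 in myoblasts to 0.148, with 0.176 in myotubes at day 3. Between autosomes it went from 0.0710 to 0.131, with 0.160 in myotubes. Coefficients as a whole spread more widely at day 7, and in units of the SD of each condition the cis contrast was 1.61 in myoblasts and 1.75 in AraC-treated myotubes. The trans contrast in these units was 1.59 and 1.79. The direction of the contrast held on both scales while the size did not. In SD units A pairs turned, from 1.40 to 1.26 in cis and from 1.49 to 1.29 in trans. B pairs turned in cis, from 0.804 to 0.786, but not in trans, where they went from 0.490 to 0.624. Unlike pairs in cis went from −0.514 to −0.729. Pearson *r* between the conditions was 0.832 over 622339 cis pairs and 0.785 over 10547562 trans pairs, which share bins. In the study, the myoblast replicates correlated less with each other than the replicates of the other conditions did. That correlation was not far above those it gave between myoblast and AraC-treated replicates. The part of replicate differences in the values here was not tested.

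Short distances held the highest coefficients in both conditions. Adjacent bins had a mean of 0.0806 in myoblasts and 0.109 in AraC-treated myotubes, and bins 2.5 to 5 Mb apart had means of 0.0334 and 0.0407. At 20.5 to 40 Mb the order was the other way, with 0.0174 and 0.0110, and at 80.5 to 160 Mb it turned again, with −0.00160 and 0.00235. These means are not in SD units. The SD over cis pairs was 0.0544 in myoblasts and 0.0844 in AraC-treated myotubes, a larger growth in proportion than that of the short-distance means. Between autosomes, chr 11 and chr 19, both gene rich, had the highest mean coefficient of the 171 pairs in myoblasts (0.0216). The same pair fell most, to 0.00984 in AraC-treated myotubes. The next 4 falls were also of chr 11, with chr 10 (0.00884 to −0.00121), chr 13 (0.0111 to 0.00297), chr 18 (0.0110 to 0.00351) and chr 6 (0.00268 to −0.00472). In units of the trans SD the pair of chr 11 and chr 19 still fell most (−0.350), followed by chr 18 with chr 19 (−0.251) and chr 17 with chr 19 (−0.218). The 5 pairs that rose most all included chr 14, with chr 6, chr 5, chr 16, chr 12 and chr 7, by at most 0.00225. In units of the trans SD these 5 differences turned negative, and on that scale the differences of all 171 pairs were negative.

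A profile correlation asks whether a bin kept the order of its partners, as Pearson *r* between its cis coefficients in both conditions. The median was 0.839 over all bins, 0.867 in bins that stayed in A and 0.849 in bins that stayed in B. In 274 bins *r* was below 0, a background share of 5.8% (5.15 to 6.50). Of these, 94 had risen and 116 had fallen, which is 28.1% of the risen and 41.6% of the fallen bins, and both measures come from the same blocks. The lowest values were −0.757 in the *Prkar2b* and *Pik3cg* bin and −0.733 at chr13:108500001-109000000, which has no protein-coding start site. They were followed by −0.725 in the *Stc2* and *Gm17332* bin of chr 11, −0.693 in the *Nid1* bin, and −0.643 at chr5:91000001-91500000. The last holds *Epgn*, *Ereg*, *Areg* and *Btc*, all ligands of the EGF receptor, and its scaled PC1 was 0.492 in myoblasts, −0.157 at day 3 and −0.339 after AraC. The *Stc2* bin, which encodes the secreted glycoprotein stanniocalcin-2, rose from −0.521 through −0.127 to 0.113.

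Genes of the contractile apparatus were in bins that mostly kept their level. Of the 67 bins with a sarcomere gene, 6 rose (8.96%) and 3 fell (4.48%), against 7.96% and 6.99% of the 3579 bins with any protein-coding start site. With components from other autosomes risen and fallen bins of this list were equal in number. The median change was 0.0205, against −0.0197 over all bins. The bin of *Ttn*, the giant spring protein of the sarcomere, had a scaled PC1 of −0.113 in myoblasts, 1.15 at day 3 and 1.28 after AraC. That of *Myo18b*, an unconventional myosin needed for sarcomere assembly, had −0.769, −0.536 and 0.410. Changes of at least 0.5 upward were also found in the bins of *Neb* (nebulin), *Myl3*, *Tnni2* with *Tnnt3* (fast troponins), and the fast and developmental myosin heavy chains, chosen here after their values were seen. The bin that holds *Myh1*, *Myh2*, *Myh3*, *Myh4* and *Myh8* on chr 11 stayed in B, at −1.21 in myoblasts, −0.779 at day 3 and −0.541 after AraC. Downward changes were in the bins of *Pdlim7* (1.61 to 0.701), *Tmod1* (1.41 to 0.685), which caps actin filaments, and *Myom1*.

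Calcium handling and membrane genes showed both directions. Of 44 bins with genes of calcium handling and excitation, 4 rose (9.09%) and 1 fell (2.27%), against 7.96% and 6.99% of bins with a start site, and the list had the highest median change of the 28 lists, 0.0674. The bin of *Cacng1*, a subunit of the skeletal muscle calcium channel, went from −0.124 in myoblasts through 0.519 to 0.798. The *Clcn1* bin (muscle chloride channel) went from 0.104 through −0.167 to −0.484, and that of *Hrc*, which did not pass the change, from 2.49 to 2.06. Of 38 bins with genes of the dystrophin complex and membrane repair, 6 rose and 6 fell (15.8% each), against the same shares. The *Lama5* bin (laminin α5) went from −0.265 in myoblasts through 0.342 to 0.492. The *Nid1* bin fell as given above, and the *Anxa5* bin (annexin A5) went from 0.752 through 0.120 to −0.0859.

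Of 67 bins with regulators of myogenesis, 4 rose (5.97%) and 7 fell (10.4%), against 7.96% and 6.99% of bins with a start site, with a median change of −0.114. In units of the myoblast SD the order turned, and risen bins outnumbered fallen bins by 21. Downward were the bins of *Eya1* and of its neighbour *Msc* (musculin, a repressor of myogenic factors), which went from 0.0727 through −0.498 to −0.707. The largest rises were in the bins of *Foxk1* (−1.14 to −0.360), a forkhead factor of muscle progenitors, and *Six2* (−0.839 to −0.113), and both bins stayed in B. Of the defining factors, *Myod1* and *Myog*, picked after their values were seen, lay in bins that moved little. *Myf5* and *Myf6* are not reported here. The *Myod1* bin had 1.51, 1.65 and 1.72, and the *Myog* bin 2.57, 2.42 and 2.45, both in A throughout.

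Of 47 bins with fusion and adhesion genes, 4 rose (8.51%) and 7 fell (14.9%), against 7.96% and 6.99% of bins with a start site. The order turned in units of the myoblast SD, where risen bins were ahead by 7. The rises were at *Itga9*, *Itgb1*, *Cd81* and *Dysf*. Below the fall at *Vcam1* came the *Dock5* bin, which went from 0.650 in myoblasts through −0.00312 to −0.201. The bins of *Dock1*, *Arhgap26*, *Cdon*, *Kirrel3* and *Cdh15* (M-cadherin) also fell. *Cdon* and *Kirrel3* lie in the same fallen run on chr 9, so their falls are not separate events. The bin of *Mymk*, the fusogen myomaker, was at 2.19, 2.27 and 2.29. Growth factor and TGF-β genes lay in 60 bins, of which 8 rose (13.3%) and 7 fell (11.7%), against the same shares. Among the risen bins, that of *Acvr2b* went from 0.225 through 0.990 to 1.45 and that of *Tgfbr2* from −0.0441 through 0.973 to 1.15. These receptor genes lie in the same run, the longest risen run on chr 9, so their rises are not separate events. Bins named under different lists can share a run too, as those of *Itga9*, *Myl3* and *Myd88* share this run. The bins of *Igf2*, *Fst* (follistatin, which binds myostatin) and *Pdgfa* rose as well. Other members of the list lay in fallen bins. *Tgfbr2*, *Igf2*, *Fst*, *Pdgfa* and, below, *Hgf* were picked after their values were seen, and most other members are not given. The *Met* bin (HGF receptor) went from 1.03 through 0.707 to 0.196, that of its ligand *Hgf* from 0.490 through 0.172 to −0.251, and that of *Fgfr4* from 2.50 through 2.21 to 1.73.

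Wnt and Notch genes lay in 63 bins, of which 8 rose (12.7%) and 4 fell (6.35%), against 7.96% and 6.99% of bins with a start site. With components from other autosomes risen and fallen bins were equal in number. The *Notch2* bin went from 0.292 through 1.08 to 1.71 and the *Axin2* bin, a feedback inhibitor of Wnt signalling, from −0.644 through 0.00171 to 0.328. The *Fzd3* bin (1.94 to 1.30) and the *Sfrp1* bin (0.265 to −0.321) fell. Among 42 bins of muscle energy metabolism, 3 rose (7.14%) and 2 fell (4.76%), and with even-numbered partner bins fallen bins were ahead by 1. *Mlycd*, malonyl-CoA decarboxylase, lay in the bin with the largest of these rises, from 0.380 through 1.84 to 2.04, and *Pfkm*, muscle phosphofructokinase, in one that went from 0.751 to 1.49. The *Pdk4* bin went from 0.219 through −0.408 to −0.529 and that of *Lpin1* from 1.31 to 0.691.

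Of 72 bins of cell cycle and mitosis genes, 2 rose (2.78%) and 4 fell (5.56%), and of 70 bins of DNA replication and repair genes, 3 rose (4.29%) and 5 fell (7.14%). Over bins with a start site the shares were 7.96% and 6.99%, so the fallen shares were near that level. In units of the myoblast SD risen bins were ahead by 28 and 23. The bin of *Ccnb1* (cyclin B1) and *Cenph* went up, from 0.751 through 1.38 to 1.66, as did that of *Cdc25a*, from −0.623 to 0.0307. The *Nuf2* bin (kinetochore) went from 0.389 to −0.323 and that of *Cdc25c* and *Kif20a* from 2.79 to 2.22. For replication genes, the *Brca2* and *Mcm7* bins rose to 1.02 and 0.675, and the bin of *Dnmt1*, the maintenance DNA methyltransferase, went from 0.581 through 0.454 to −0.176. That of its partner *Uhrf1* with *Chaf1a* went from 0.929 through 0.929 to 0.258. Of 44 bins of cell cycle exit genes, 3 rose and 3 fell (6.82% each), also near that level. The *Cdkn1c* bin, encoding the inhibitor p57, rose from 0.532 through 1.39 to 1.95 and that of *Dyrk1a* from −0.164 through 0.747 to 1.10, while the bins of *Cebpa* and *Cdkn2d* (1.74 to 1.02) fell.

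Matrix and fibroblast genes had the highest share of fallen bins among lists with at least 10 bins. Of 48 bins, 10 fell (20.8%) and 4 rose (8.33%), against 6.99% and 7.96% of bins with a start site. The share in A went from 72.9% to 58.3%, and over all bins from 38.2% to 35.5%. In units of the myoblast SD risen bins were ahead by 6. The bin of *Col4a1* and *Col4a2* (basement membrane collagen) went from 0.948 through 0.289 to −0.0438 and that of *Ccn2*, a matricellular growth factor, from 1.33 to 0.451. Bins of *Col3a1*, *Vim*, *Thy1*, *Timp3*, *Tnc*, *Ccn1*, *Col5a3* and *Col8a1* fell too. Upward were the bins of *Postn* (0.391 to 1.21), *Fbln2*, *Thbs1* and *Col12a1*. Marker lists of bone, fat, endothelium, leukocytes and neurons, which Hi-C cannot read as expression, had between 1 and 5 risen and 3 and 4 fallen bins among 28 to 55. Risen shares ran from 2.94% of 34 bins (leukocytes) to 17.9% of 28 bins (bone and cartilage), against 7.96% of bins with a start site. Fallen shares ran from 5.45% of 55 bins (neurons) to 11.8% of 34 bins (fat), against 6.99%. Interferon and DNA-sensing genes lay in 50 bins, of which 2 rose (*Myd88*, 0.225 to 1.45, and the *Naip* genes) and 2 fell (*Irf2* and *Ifnb1*). These shares, 4% each, were below those of bins with a start site.

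Over bins with a start site, 7.96% rose and 6.99% fell. Solute carrier genes lay in 310 bins, of which 25 rose (8.06%) and 22 fell (7.10%), and zinc finger genes in 200 bins, of which 17 rose (8.50%) and 13 fell (6.50%). Keratin and keratin-associated genes lay in 12 bins, of which 3 rose and 0 fell, and vomeronasal receptor genes in 59 bins, of which 1 rose (1.69%) and 0 fell. Olfactory receptor genes lay in 114 bins, 24.6% of them in A in myoblasts, and 6 rose (5.26%) and 4 fell (3.51%). The order turned for olfactory and vomeronasal genes in units of the myoblast SD, and for solute carrier and ribosomal protein genes with components from other autosomes. Of the 5 bins with Hox genes, that of the Hoxa cluster fell and that of the *Hoxd* genes rose, from −0.124 in myoblasts through −0.00310 to 0.520. The bin with most of the *Hoxc* genes was at 2.13, 2.15 and 2.03. Of 6 bins of replication-dependent histone genes, 1 rose and 1 fell. Oxidative phosphorylation genes lay in 86 bins with 4 risen and 4 fallen, and cytosolic ribosomal protein genes in 75 bins with 5 and 3. In 7 of the 28 lists the median change was above that of all bins. The quartiles of all 28 lists enclosed the median of all bins, and no list was tested.

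**Figure D5:**
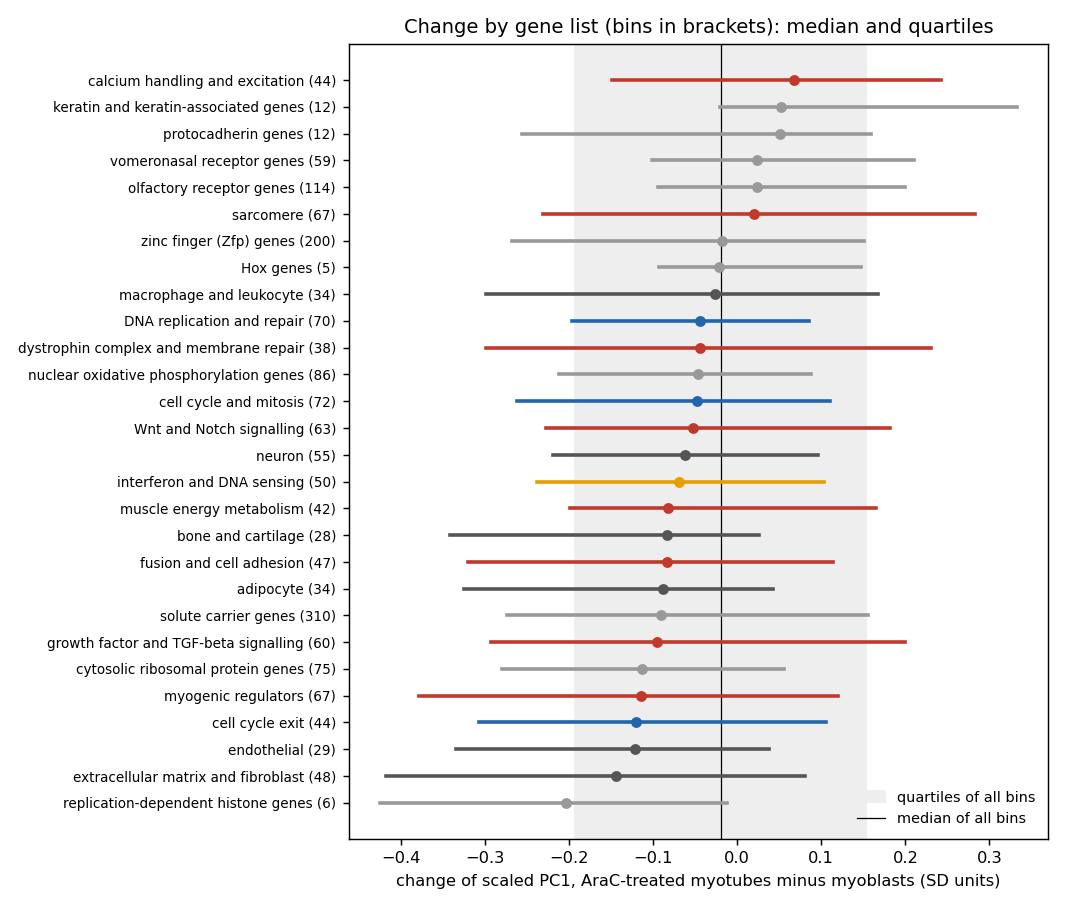
Change of scaled PC1 from myoblasts to AraC-treated myotubes (x axis, SD units) in the bins of each gene list (y axis, number of bins in brackets). Points are medians and bars the quartiles (red, muscle lists; blue, cell cycle lists; orange, interferon; dark grey, other cell types; light grey, gene families), with the quartiles (band) and median (line) of all 4727 bins. Medians run from 0.0674 for calcium handling to −0.204 for histone genes, and the bars of all lists overlap the band.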

How the data were processed

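Hi-C libraries of C2C12 cells were prepared with HindIII. By the methods of the study, reads were mapped with bowtie in HiCUP v0.5.3 and deduplicated, and di-tags were filtered and normalized in HOMER. Per the labels the builds are mm10 and GRCh38, and the methods use the latter name for a mouse reference. Coordinates were read here as mm10. The deposited values are a score: for each pair of 500 kb bins the authors gave the correlation coefficient of normalized interaction profiles, after pooling 2 replicates. The number of di-tags behind a coefficient is unknown from such values, and pooling removed the spread between replicates. The study reported fewer pooled di-tags for AraC-treated myotubes than for myoblasts. It also reported a larger share of di-tags between chromosomes in the AraC-treated libraries. The part of these differences in the spread of coefficients, the contrasts and the variance explained by PC1 was not tested. Columns of unmapped samples numbered 0.

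Bins with a diagonal value above 0.5 in both conditions were kept. PC1 came from singular value decomposition of the column-centred block of each autosome, was signed by protein-coding start sites (GENCODE vM21) and divided by its SD. A change of at least 0.5 was the size used, with no test. Genes were placed in the bin of their start site (3600 of 3615 list symbols were found). Named were the 10 largest rises and falls, the 5 longest runs each way, the 5 lowest profile correlations, the 3 autosomes with the highest and lowest share of changed bins, the 5 pairs of autosomes that rose and fell most, and the 2 bins of each list that rose and fell most. Some genes that this rule names are not reported here. The members and lists were chosen with earlier results of these data known. The code of the PC1 comparison was checked on simulated data, with shifted bins placed at random and independent noise. Changes in the real data were clustered, so that check does not bear on the calls. The alternatives were other scalings, thresholds, partner bins, distances, components from other autosomes, gene placement and bins left out. Computation ran in Python 3.11.15 with SciPy 1.17.1 and NumPy 2.4.6, and figures were drawn with Matplotlib 3.10.9.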

Additional observations from a re-analysis of the deposited data

How the results depend on the processing

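No paired analysis was possible because replicates were pooled before deposit, so no fit with a replicate block and no result without a replicate could be had. At a change of 0.75, 243 bins passed (175 risen, 68 fallen) in 50 runs of 2 or more bins, against 613 bins and 129 runs at 0.5, and at a change of 1, 91 passed (78 risen, 13 fallen). With PC1 of both conditions in units of the myoblast SD, 2485 bins passed (1176 risen, 1309 fallen) in 369 runs, the longest of 36 bins, and the median change went from −0.0197 to −0.259. On that scale 64.5% of risen bins lay distal of the midpoint and 60.5% of fallen bins on the centromeric side. With small absolute PC1 values left out, 40 switches remained, 9 out of A and 31 into A, against 483.

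With components from other autosomes, 523 of the 613 bins still passed, and with odd and with even partner bins 527. These settings reuse the same interaction profiles. The *r* of the change was 0.964 between cis and trans components and 0.974 between odd and even partners. The overlap is therefore no independent support for the calls. All 20 bins named for the largest rises and falls kept their direction under the 5 alternatives run on them. These bins were chosen as the extremes of the same change, and the alternatives reuse its matrices. That outcome was thus nearly fixed beforehand. Without chr 8 and chr 9, 72.3% of risen bins lay distal of the midpoint and 67.7% of fallen bins on the centromeric side. These settings of position, and the counts without chr 13, were chosen after seeing the data.

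The cis contrast rose by 0.0601, by 0.0590 over 10 Mb, by 0.0995 with the top and bottom 20% of bins and by 0.137 in SD units. The trans contrast rose by 0.0599, by 0.0994 with the top and bottom 20% and by 0.197 in SD units. Spearman's rank correlation gave 0.780 in cis and 0.698 in trans, and cis pairs over 2 Mb gave a Pearson *r* of 0.826. At a profile correlation below 0.2, 465 bins were counted against 274.

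In units of the myoblast SD, 24 of 28 lists had a median above that of all bins, against 7. There the difference of risen and fallen bins turned in 10 lists: DNA replication and repair (23), adipocyte (13), cell cycle and mitosis (28), endothelial (2), extracellular matrix and fibroblast (6), fusion and cell adhesion (7), macrophage and leukocyte (14), myogenic regulators (21), olfactory receptor (−7) and vomeronasal receptor genes (−12). It turned with odd partners for bone and cartilage (−2), with even partners for muscle energy metabolism (−1) and with other autosomes for ribosomal protein (−4) and solute carrier genes (−4). With other autosomes the difference went to 0 for Wnt and Notch (from 4) and for sarcomere genes (from 3). The cause of these moves was not tested.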
